A study of Mus musculus with 12 samples.

Results

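The 29 genes described here make, sense and move cholesterol. They comprise 18 enzymes of sterol synthesis, 5 regulators of the pathway and 6 genes of sterol transport or lipoprotein handling. They were chosen by name from the 50600 genes of the count table, with earlier results of these data known. All 29 had a row in the table. The libraries were limiting-cell RNA-seq libraries from the mouse dentate gyrus, the part of the hippocampus in which neurons are born in the adult. Mice of 6 to 9 weeks carried a Nestin-GFP reporter, in which green fluorescent protein is driven by Nestin regulatory sequence, and all 3 cell types came from such mice. Live cells negative for CD31, CD45, O1 and O4 (antigens of endothelium, blood cells and the oligodendrocyte lineage) were sorted as stem cells when they carried both GFP and GLAST, as progenitors when they carried GFP alone and as astrocytes when they carried GLAST alone, GLAST being the glutamate transporter encoded by Slc1a3. Each library held 50 cells, with 4 libraries per cell type. The labels name no strain, treatment or batch. The study describes the libraries of a cell type as biological replicates, each from a single mouse brain, while the labels do not say which libraries of different cell types came from the same animal.

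Cholesterol is built from acetyl-CoA through the mevalonate pathway to squalene, which is then closed into a sterol ring and trimmed to cholesterol. The pathway is controlled by SREBP transcription factors, which are held in the endoplasmic reticulum with their escort SCAP by INSIG proteins when sterols are plentiful, and which are cleaved and enter the nucleus when sterols run low. The adult brain makes its own cholesterol because lipoproteins of the blood do not cross the blood-brain barrier, and astrocytes are known as a main source of sterol that is loaded on lipoproteins by ABC transporters and taken up by neurons. SREBP acts on its target promoters together with the factors NF-Y and Sp1, which bind CCAAT boxes and GC boxes.

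Promoters are shown here because the motifs that these factors are known to bind can be looked for in their letters. The following lines give the 250 bases before the RefSeq start site (GRCm38.p6, 5′ to 3′ on the gene's strand) of 4 synthesis genes that were higher in stem cells than in progenitors. They are Hmgcs1, which has the core of a sterol response element, and Idi1, Msmo1 and Nsdhl, which had the largest fold changes. Capitals mark CCAAT on either strand, read as ATTGG on the other strand.
Hmgcs1 (chr13:119690101-119690350, plus strand): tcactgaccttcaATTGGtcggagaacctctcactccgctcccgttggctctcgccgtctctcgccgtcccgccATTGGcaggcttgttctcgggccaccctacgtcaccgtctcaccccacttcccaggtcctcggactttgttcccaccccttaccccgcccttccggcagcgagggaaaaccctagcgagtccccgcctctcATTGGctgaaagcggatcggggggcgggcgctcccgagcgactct
Idi1 (chr13:8885356-8885605, plus strand): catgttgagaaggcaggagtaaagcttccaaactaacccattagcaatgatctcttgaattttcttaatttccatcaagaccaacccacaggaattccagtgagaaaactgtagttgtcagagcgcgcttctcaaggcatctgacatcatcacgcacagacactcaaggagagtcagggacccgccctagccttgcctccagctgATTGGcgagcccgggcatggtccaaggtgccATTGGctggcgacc
Msmo1 (chr8:64733579-64733828, minus strand): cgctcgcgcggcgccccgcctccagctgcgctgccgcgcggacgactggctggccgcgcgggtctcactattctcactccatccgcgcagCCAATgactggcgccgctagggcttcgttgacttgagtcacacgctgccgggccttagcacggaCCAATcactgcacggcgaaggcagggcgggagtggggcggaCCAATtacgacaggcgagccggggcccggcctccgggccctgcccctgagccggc
Nsdhl (chrX:72918271-72918520, plus strand): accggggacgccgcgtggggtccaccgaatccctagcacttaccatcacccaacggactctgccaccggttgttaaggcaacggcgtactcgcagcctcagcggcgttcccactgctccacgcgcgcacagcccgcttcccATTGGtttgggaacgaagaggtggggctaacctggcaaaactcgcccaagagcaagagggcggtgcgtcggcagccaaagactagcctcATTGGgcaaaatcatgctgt

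The upstream 250 bases were available for 22 of the 29 genes, and Fdps, Fdft1, Sqle, Abcg1, Lpl, Stard4 and Npc1 were not scanned. CCAAT was found on either strand in 14 of the 15 scanned synthesis genes, the exception being Acat2, and in 19 of all 22 scanned genes (86.4%). It was found in 37.5% of all 27025 genes with a window. A gene with several start sites was counted when any of its windows held the motif. Counted by window, CCAAT stood in 20 of the 30 windows of these genes (66.7%) and in 33.8% of all 32851 windows. The GC box GGGCGG stood in 21 of the 22 genes (95.5%), all but Pmvk, against 35.4% of all genes. The sterol response element core TCACNCCAC was found in 1 of the 22 genes, against 1.22% of all genes. That gene was Hmgcs1, where the match began 137 bases before the start site on the gene's strand. It is marked by capitals in its surroundings on the next line.
Hmgcs1 sterol response element: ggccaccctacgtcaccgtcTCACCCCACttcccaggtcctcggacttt
The 3 motifs were searched as exact letters on both strands and counted separately, overlaps included. Elements that differ from these letters were not counted, so a gene without a match may still hold such an element. These matches describe the letters of the windows. They were not used in any of the comparisons of counts.

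Total counts on genes ranged from 5357232 to 6253680 in astrocyte libraries, from 9041498 to 12535028 in progenitor libraries and from 5031166 to 10435711 in stem cell libraries. Levels are given as CPM, counts per 1000000 counts on library sizes scaled by TMM, a method that assumes most genes to be equal between libraries. Between 16389 and 17015 genes had at least 10 counts in a progenitor library, between 13368 and 14175 in a stem cell library and between 9430 and 11655 in an astrocyte library. A count of 3, the limit that a count of 0 allows, corresponded to between 0.206 and 0.639 CPM, and as no molecular identifiers are named, this limit covers counting error only. Checked against marker genes, astrocyte markers summed to between 19053 and 25335 CPM in astrocyte libraries, 9179 and 12012 in progenitor libraries and 29148 and 38557 in stem cell libraries. The progenitor libraries held markers of neuronal progenitors (9 of 10 with at least 10 counts in every library, summed 1463 to 3137 CPM) and also of oligodendrocyte precursors (9 of 10, summed 2353 to 3975 CPM, with Pdgfra between 396 and 866 CPM and Enpp6 at 0). Mural cell markers summed to between 939 and 2585 CPM in progenitor libraries a, c and d and to 56.2 CPM in b. Nes, the gene whose regulatory sequence drives the reporter, was at 0 in every astrocyte library and at most 0.521 CPM in the stem cell libraries, whose Sox9 and Hopx levels were between 255 and 428 CPM and between 493 and 598 CPM. Astrocyte library a had 2135 CPM of the myelin gene Mbp, 270 CPM of Pdgfra and 117 CPM of Neurod1. Sox11 (108 CPM) and Tubb3 (74.5 CPM) of the neuronal list were also present there, but Dcx was at 0.213 CPM and Eomes at 0. Of the precursor list, Cspg4 was at 9.37 CPM and Sox10 at 0.426 CPM in that library. Other astrocyte libraries also held markers of other cell types. The myelin gene Mobp had 578 CPM in b against 336 CPM in a, and the microglial gene C1qb had 138 CPM in d.

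Taken by cell type, the 18 synthesis genes together made up 4174 ± 851 CPM (SD, n = 4) in stem cells, 2449 ± 329 CPM in astrocytes and 1977 ± 432 CPM in progenitors. Their sums in single libraries were 3848, 4320, 5272 and 3257 CPM in stem cells 1 to 4, then 2629, 2500, 1972 and 2697 CPM in astrocytes a to d, and 2583, 1906, 1860 and 1560 CPM in progenitors a to d. All 4 stem cell libraries lay above the other 8 libraries, while astrocytes and progenitors overlapped. As a share of plain counts on genes, the synthesis genes took 0.406 ± 0.0659% in stem cells, 0.211 ± 0.0316% in astrocytes and 0.234 ± 0.0477% in progenitors (SD, n = 4), with stem cells again above every other library, whereas the order of the other 2 cell types was turned by the scaling. The astrocyte marker sum was also highest in stem cells and lowest in progenitors, and the precursor and neuronal marker sums were highest in progenitors. Markers of mature oligodendrocytes summed to between 477 and 848 CPM in stem cells, 249 and 419 CPM in progenitors and 337 and 3205 CPM in astrocytes. The part of the cells that carry these markers in the differences of the synthesis genes was not tested. In pools of cells, fewer cells of a type and less RNA per cell cannot be told apart.

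**Figure D1:**
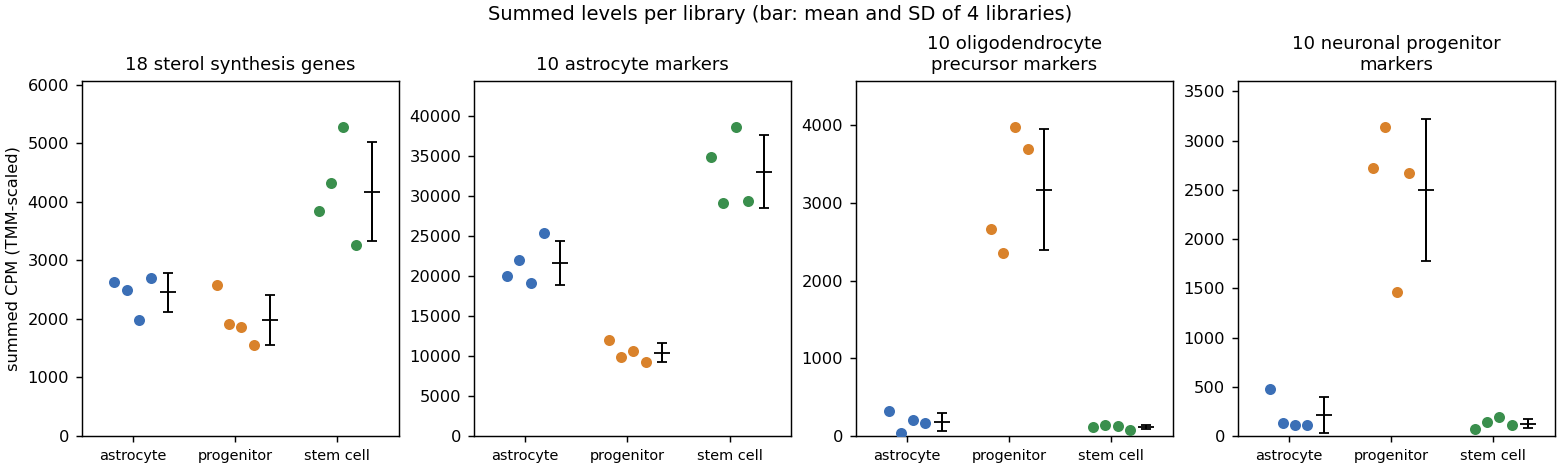
Summed TMM-scaled CPM per library of the 18 sterol synthesis genes and of 3 marker lists of 10 genes each, as points, with the mean and SD of the 4 libraries of each cell type as a bar. The synthesis sums of stem cells (3257 to 5272 CPM) lie above those of astrocytes (1972 to 2697 CPM) and progenitors (1560 to 2583 CPM), and the oligodendrocyte precursor and neuronal progenitor markers are high in progenitor libraries.

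Levels of different genes were compared per kilobase of exon. In stem cells the highest level was that of Msmo1 (162 ± 42.6 CPM per kb, SD, n = 4), which removes methyl groups from the sterol ring, followed by Fdft1, the squalene synthase (149.3 ± 29.8 CPM per kb), and Mvd, which makes isopentenyl diphosphate (93.7 ± 21.4 CPM per kb). The first pair of these differed by less than their spread. In astrocytes Msmo1 (103 ± 26.6), Acat2 (87.8 ± 103) and Mvd (78.0 ± 36.1 CPM per kb) had the highest means, and in progenitors Fdft1 (72.1 ± 22.8), Acat2 (60.8 ± 10.0) and Mvd (56.2 ± 24.0 CPM per kb) did, and these triplets overlapped in their spread. Lpl, Stard4 and, except in progenitors, Abcg1 were lowest.

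**Figure D2:**
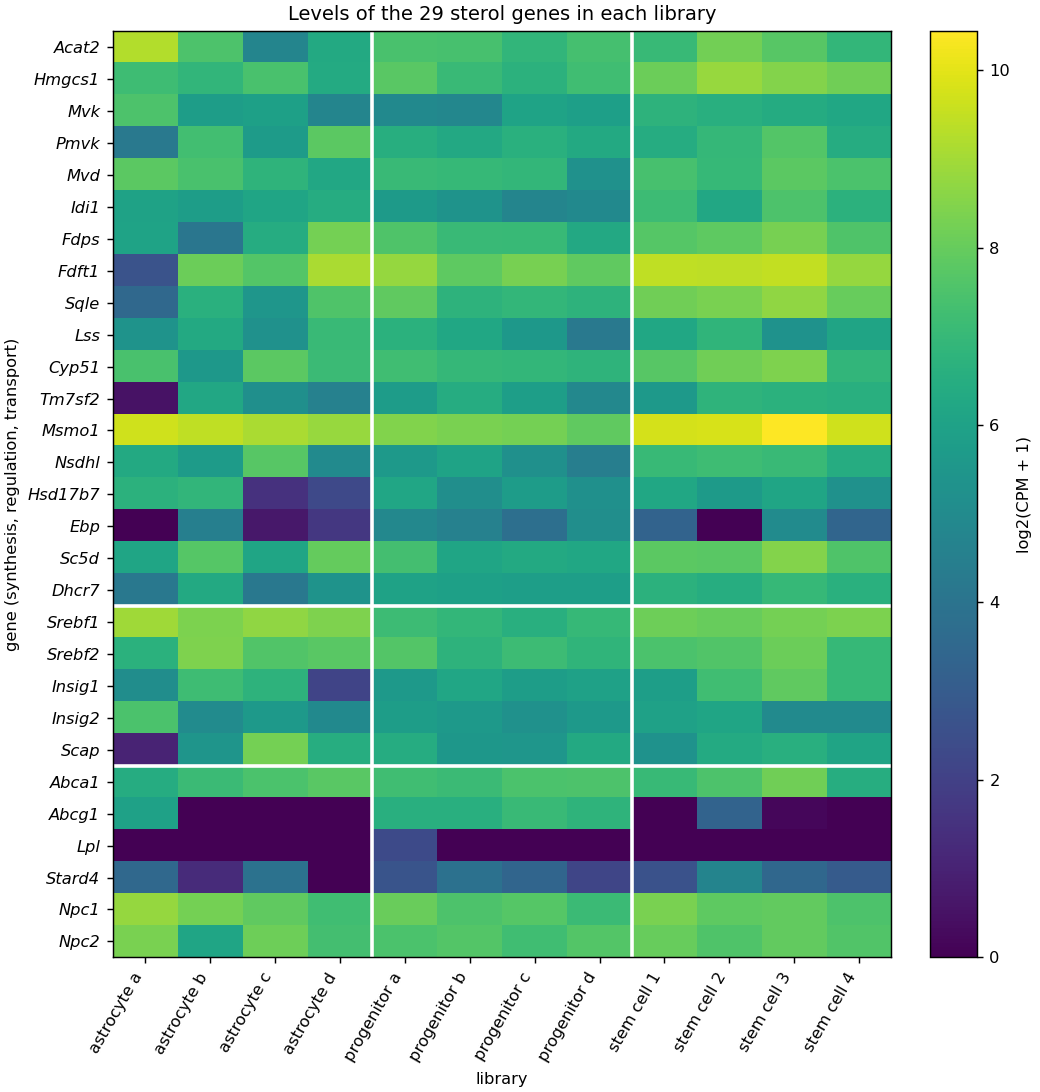
Levels as log2(CPM + 1), on the colour scale, of the 29 genes (rows, grouped into synthesis, regulation and transport by white lines) in the 12 libraries (columns). Msmo1 and Fdft1 are high in stem cells, Abcg1 is high in progenitors, lower in astrocyte a and stem cell 2 and near 0 elsewhere, and single astrocyte libraries are low for genes such as Fdft1 and Tm7sf2 in a and Hsd17b7 in c and d.

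The astrocyte libraries scattered most. Over the 18 synthesis genes, the median coefficient of variation between libraries was 84.8% in astrocytes, 34.1% in progenitors and 27.9% in stem cells. In astrocyte library a, Fdft1 had 25 counts, Tm7sf2 had 2 and Ebp had 0, while the other 3 astrocyte libraries had between 1013 and 2734 counts of Fdft1 and between 113 and 413 of Tm7sf2. In astrocyte library c, Hsd17b7 had 9 counts, against 491 and 643 in libraries a and b.

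Stem cells and progenitors, which differ in the sort by GLAST, were compared first. Of the 28 tested genes, 9 were called higher in stem cells and 1 lower, by the quasi-likelihood test of edgeR, with p-values adjusted by Benjamini-Hochberg across the 15427 genes tested (threshold 0.05). Among all genes tested, 3.66% were called higher and 4.95% lower in stem cells. Because the genes were chosen with earlier results known, such shares are given here and below for scale and not as a test. The 9 were 8 of the 18 synthesis genes (Hmgcs1, Idi1, Fdft1, Sqle, Msmo1, Nsdhl, Sc5d and Dhcr7) and the regulator Srebf1, and the gene that fell was the transporter Abcg1. The log2 fold change (stem cells over progenitors) was above 0 in 17 of the 18 synthesis genes, with a median of 0.90, against a median of -0.04 and 48.2% above 0 over all genes tested. In 10 genes every stem cell library lay above every progenitor library, against 7.5% of all genes tested, and in 1 gene every one lay below, against 11.8%. The 10 were the 9 called genes and Mvk.

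The count of called genes depended on the libraries. It was 10 in all, between 3 and 9 when any 1 library was left out, and 2 (Msmo1 and Srebf1) when all 12 libraries shared 1 fit and with it the spread of the astrocytes. The lowest counts came without progenitor c (3), progenitor b (4), progenitor d (4) and stem cell 3 (5). Msmo1 and Srebf1 kept their call in all 8 fits that left out a library and under the 6 other settings tried, and Idi1 in all 8 such fits, with a direction that did not change for any of the 10 called genes.

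The first enzymes of the pathway make mevalonate and turn it into isoprenoid units. Hmgcs1, the cytosolic HMG-CoA synthase (chromosome 13, 119690379 to 119708260 on GRCm38), had 274, 458, 360 and 286 CPM in stem cells 1 to 4 and 216, 134, 102 and 149.7 CPM in progenitors a to d. Every stem cell library lay above every progenitor library, and the log2 fold change was 1.23 ± 0.26 (SE; adjusted p = 0.017, edgeR). The call was lost without progenitor b, c or d.

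Idi1, which isomerizes isopentenyl diphosphate (chromosome 13, 8885501 to 8892451), had 142, 76.5, 184 and 103 CPM in stem cells and 50.5, 40.1, 26.1 and 30.3 CPM in progenitors. The groups did not overlap, and Idi1 showed the largest rise of the synthesis genes, by 1.82 ± 0.34 on the log2 scale (adjusted p = 0.0092). Its exons as annotated in GENCODE M21 share 9.21% of their bases with Gm48574 on the other strand, and those of Hmgcs1 share 12.1% with Gm48342. Reads there were not told apart by strand, and the study does not state how such reads were assigned.

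The other early enzymes did not pass the test. Mvk, the mevalonate kinase, had 107, 94.6, 85.4 and 74.5 CPM in stem cells and 30.0, 27.4, 64.9 and 57.8 CPM in progenitors, without overlap, and a log2 fold change of 1.04 ± 0.34 (adjusted p = 0.093). DESeq2 called it (adjusted p = 0.037). For Fdps, the farnesyl diphosphate synthase, the log2 fold change was 0.83 ± 0.28 (adjusted p = 0.11), for Mvd 0.78 ± 0.37, for Pmvk, the phosphomevalonate kinase, 0.56 ± 0.29 and for Acat2, a cytosolic acetyl-CoA acetyltransferase, 0.31 ± 0.29. Their libraries overlapped between the cell types.

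The next enzymes commit farnesyl diphosphate to sterols. Fdft1 (chromosome 14, 63145150 to 63179578) had 697, 681, 703 and 443 CPM in stem cells and 437, 231, 315 and 236 CPM in progenitors. The lowest stem cell library thus stood just above the highest progenitor library, and the log2 fold change was 1.08 ± 0.25 (adjusted p = 0.022). The call was lost without progenitor b, c or d and without stem cell 1 or 3. Of its exonic bases, 18.3% lie opposite Ctsb.

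Sqle, the squalene epoxidase (chromosome 15, 59315077 to 59331192), had 289, 323, 415 and 258 CPM in stem cells and 236, 107, 118 and 107 CPM in progenitors, where library a stood apart from the others. It rose by 1.21 ± 0.30 on the log2 scale (adjusted p = 0.031), a call lost without progenitor b, c or d and without stem cell 1, 2 or 3. Under plain library totals, which shift the log2 ratio of stem cells over progenitors by -0.28, the stem cell and progenitor libraries of Fdft1 and of Sqle overlapped, and 15 in place of 17 synthesis genes had the higher mean in stem cells, Acat2 and Hsd17b7 changing side. Lss, the lanosterol synthase that closes the ring, had a log2 fold change of 0.32 ± 0.50 (adjusted p = 0.80).

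Among the enzymes that trim lanosterol, Msmo1 (chromosome 8, 64718139 to 64733792) had 877, 896, 1386 and 825 CPM in stem cells and 346, 324, 306 and 239 CPM in progenitors. The lowest stem cell library held more than the highest progenitor library by a wide margin. Msmo1 rose by 1.75 ± 0.21 on the log2 scale, with the lowest adjusted p of the 29 genes (0.0013), and its fold change lay between 1.55 and 1.82 over the alternatives.

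Nsdhl, which works in the same demethylation step (chromosome X, 72918557 to 72958514), had 132, 145, 134 and 86.4 CPM in stem cells and 47.5, 65.6, 37.0 and 21.3 CPM in progenitors. It rose by 1.57 ± 0.35 on the log2 scale (adjusted p = 0.019), and the call was lost without progenitor c and in the fit of 12 libraries. Of the other genes of these steps, Cyp51, the lanosterol demethylase, had a log2 fold change of 0.95 ± 0.30 (adjusted p = 0.090, and 0.033 by DESeq2), Tm7sf2, a sterol reductase, 0.68 ± 0.38 and Hsd17b7, a ketosteroid reductase, 0.28 ± 0.35. None of these passed the test in edgeR.

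Sc5d and Dhcr7 act at the end of the pathway, Dhcr7 reducing 7-dehydrocholesterol to cholesterol. Sc5d (chromosome 9, 42251595 to 42264256) had 225, 218, 357 and 188 CPM in stem cells and 159, 69.5, 79.4 and 73.7 CPM in progenitors, and rose by 1.41 ± 0.32 on the log2 scale (adjusted p = 0.024). Dhcr7 (chromosome 7, 143823145 to 143848410) had 102, 88.7, 127 and 98.8 CPM in stem cells and 64.1, 59.9, 56.4 and 57.0 CPM in progenitors, the narrowest progenitor range of the synthesis genes relative to its mean (coefficient of variation 5.91%). Both genes separated the groups without overlap. Dhcr7 rose by 0.85 ± 0.21 on the log2 scale (adjusted p = 0.035), the smallest rise among the called genes, and kept its call in only 1 of the 8 fits that left out a library, that without stem cell 2. Sc5d kept it in 4 of 8, losing it without progenitor b, c or d or stem cell 3. Ebp, the sterol isomerase, was the single synthesis gene with the lower mean in stem cells, at 9.03, 0, 31.4 and 9.47 CPM against 28.5, 23.0, 13.0 and 34.9 CPM in progenitors, and its log2 fold change of -0.95 ± 1.12 did not pass the test (adjusted p = 0.72).

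**Figure D3:**
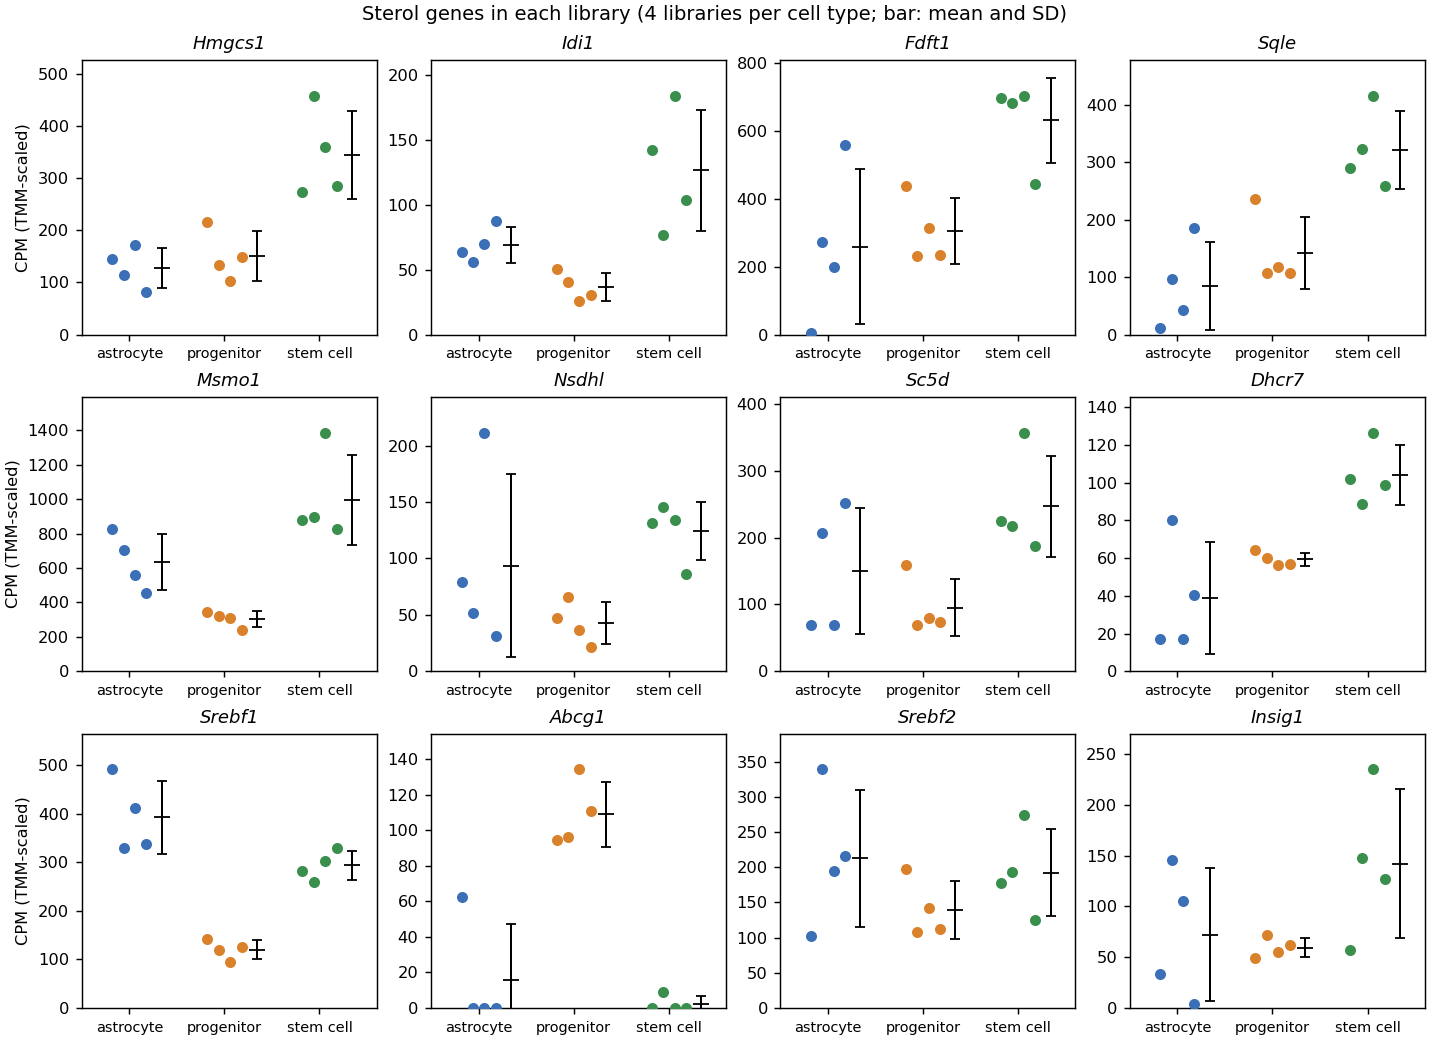
CPM on TMM-scaled library sizes of 12 sterol genes in each library (points, 4 per cell type), each panel with its own axis from 0, and the mean and SD as a bar. In the 8 synthesis genes and Srebf1 every stem cell point lies above every progenitor point, Abcg1 is high in progenitors and in 1 astrocyte library at 62.6 CPM, and the Insig1 and Srebf2 points overlap between all cell types.

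Of the regulators, Srebf1 (chromosome 11, 60199089 to 60222581), which encodes SREBP-1, the form that favours fatty acid genes, had 281, 260, 303 and 329 CPM in stem cells and 142, 118, 94.1 and 125 CPM in progenitors. The highest progenitor library lay well below the lowest stem cell library, and Srebf1 rose by 1.33 ± 0.19 on the log2 scale (adjusted p = 0.0028). Srebf2, which encodes SREBP-2, the form that favours cholesterol genes, had 178, 193, 274 and 125 CPM in stem cells and 197, 108, 142 and 112 CPM in progenitors. These ranges overlapped, with a log2 fold change of 0.50 ± 0.28 (adjusted p = 0.37).

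Insig1, which encodes a retention protein and is itself a target of SREBP, had 57.0, 148, 235 and 127 CPM in stem cells and 49.0, 71.6, 55.3 and 61.8 CPM in progenitors. Only stem cell 1 lay within the progenitor range. The log2 fold change of 1.29 ± 0.38 did not pass the test (adjusted p = 0.065), while it passed in DESeq2 (adjusted p = 0.014), with at least 10 counts asked of every library and without stem cell 1. Scap had 38.9, 82.7, 94.7 and 66.5 CPM in stem cells and 86.5, 44.9, 43.7 and 79.5 CPM in progenitors, which lay within the same range, with a log2 fold change of 0.19 ± 0.36, and for Insig2, the other retention protein, it was 0.05 ± 0.35.

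Among the transport genes, Abcg1, an exporter of sterol to lipoproteins (chromosome 17, 31057675 to 31117988), had 94.6, 96.1, 134 and 111 CPM in progenitors and 0, 8.99, 0.125 and 0 CPM in stem cells. In counts, the progenitor libraries held between 1151 and 1453 and the stem cell libraries 0, 69, 1 and 0. It fell by 5.54 ± 1.37 on the log2 scale (adjusted p = 0.033). The fitted value was -10.90 without stem cell 2, which leaves libraries with at most 1 count, and then depends on the prior count of the fit. The call was lost without any 1 of the progenitor libraries, without stem cell 3 or 4 and in the fit of 12 libraries. The oligodendrocyte precursor and neuronal progenitor markers were high in the same 4 progenitor libraries, and their part in the Abcg1 level was not tested.

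No other transport gene passed the test between these cell types. Abca1, the exporter that loads sterol on apolipoproteins, had 129, 185, 291 and 89.7 CPM in stem cells and 152, 139, 180 and 185 CPM in progenitors, with a log2 fold change of 0.12 ± 0.32. The log2 fold changes of Npc1 and Npc2, which release sterol from lysosomes, were 0.35 ± 0.24 and 0.32 ± 0.18 (adjusted p = 0.47 and 0.36), and that of Stard4, a soluble sterol carrier, was 0.58 ± 0.75. Stard4 stayed at or below 25.0 CPM in all libraries. Lpl, the lipoprotein lipase, was not tested in any comparison, with 59 counts in progenitor a and 0 counts in the other 11 libraries.

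**Figure D4:**
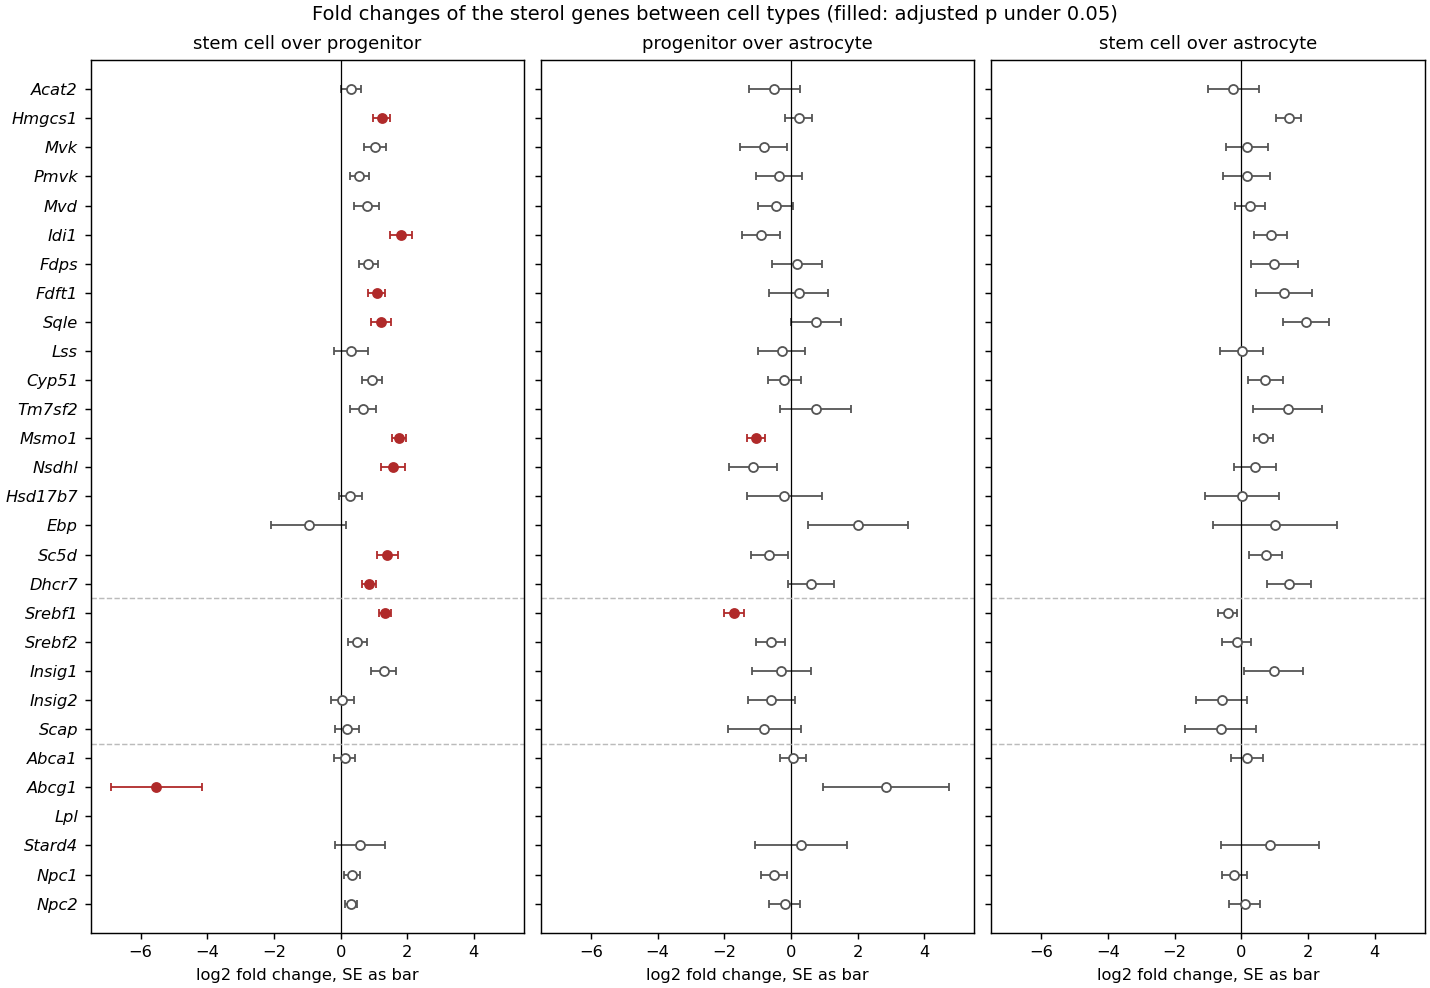
Log2 fold changes (points) with their standard errors (bars) of the tested genes in the 3 comparisons, in order of synthesis, regulation and transport, separated by dashed lines. Filled points passed the edgeR test at an adjusted p under 0.05, namely 10 genes for stem cells over progenitors, 2 for progenitors over astrocytes and none for stem cells over astrocytes, and the bars are longest in the comparisons with astrocytes.

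The comparison of astrocytes and progenitors, which differ in the sort by both GFP and GLAST, shares its progenitor libraries with the first. Of 28 genes tested among 14806, 2 were called lower in progenitors, against 2.45% of all genes, and none was called higher, against 6.18%. At an unadjusted p under 0.05 there were the same number, 2, against 2792 of the 14806 genes tested. DESeq2 also called 2, against 2431 of all genes. Every progenitor library lay below every astrocyte library in 3 genes (Idi1, Msmo1 and Srebf1), against 5.84% of all genes tested, and above in 1, Abcg1, against 15.2%.

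Srebf1 had 492, 329.7, 412 and 338 CPM in astrocytes a to d, well above the 94.1 to 142 CPM of progenitors. It was lower in progenitors, with a log2 fold change of -1.71 ± 0.30 (adjusted p = 0.015), and kept its call under all 14 alternatives, with values between -1.81 and -1.33. Msmo1 had 825, 702, 556 and 453 CPM in astrocytes, above the 239 to 346 CPM of progenitors, with a log2 fold change of -1.06 ± 0.27 (adjusted p = 0.038). That call was lost without astrocyte b, without any 1 progenitor library, without a count filter and with at least 10 counts asked of every library, at adjusted p between 0.02 and 0.17 over the alternatives. Both calls held without astrocyte a. Mature oligodendrocyte markers summed to 3205, 1459, 618 and 337 CPM in astrocytes a to d, and their part in the Msmo1 level was not tested. Plain totals shift this comparison by 0.47 on the log2 scale. Both genes still had non-overlapping libraries under plain totals, with log2 ratios of the means of -1.24 for Srebf1 and -0.59 for Msmo1, whereas the libraries of Idi1 then overlapped, with a log2 ratio of -0.45.

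The direction of the synthesis genes as a group was not settled in this comparison. With TMM scaling 7 of the 18 had the higher mean in progenitors and with plain totals 12 did, and the median log2 fold change in the fit was -0.24 against -0.03 over all genes tested. Idi1 had 63.3, 55.7, 69.3 and 87.4 CPM in astrocytes, a log2 fold change of -0.91 ± 0.56 and an adjusted p of 0.45. Abcg1 had 62.6 CPM in astrocyte a and 0 in the other 3, and its log2 fold change of 2.85 ± 1.90 did not pass the test (adjusted p = 0.49). Without astrocyte a, the only astrocyte library with Abcg1 counts, Abcg1 was called (adjusted p = 0.0022, edgeR). That library also held Pdgfra and Neurod1 RNA, but little of the precursor genes Cspg4 (9.37 CPM) and Sox10 (0.426 CPM). Whether it held cells of other types, and whether these had a part in its Abcg1 level, was not tested. Without astrocyte a, the fitted log2 value of 12.97 depends on the prior count. With 3 counts allowed in each of the 3 astrocyte libraries at 0, the progenitor mean was 186-fold above the mean of these limits. This bound leaves out astrocyte a and covers counting error only. The astrocyte levels of Hmgcs1 (145, 115, 172 and 81.7 CPM), Fdft1 (5.32, 273, 200 and 558 CPM), Sqle (10.6, 97.0, 43.5 and 186 CPM), Nsdhl (79.2, 51.9, 212 and 31.2 CPM), Sc5d (69.9, 207, 68.7 and 252 CPM) and Dhcr7 (17.3, 80.0, 17.2 and 40.4 CPM) overlapped those of progenitors.

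For the regulators, Srebf2 had 102, 339, 194 and 215 CPM in astrocytes with a log2 fold change (progenitors over astrocytes) of -0.61 ± 0.44. Insig1 had 33.7, 146, 106 and 3.47 CPM, with -0.29 ± 0.89, and Scap had 1.06, 42.0, 302 and 89.7 CPM, with -0.80 ± 1.09. Scap ranged more widely among astrocytes than in either of the other cell types. Neither Abca1 (0.07 ± 0.39), Npc1 (-0.52 ± 0.39) nor Npc2 (-0.19 ± 0.46) passed the test.

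Astrocytes and stem cells both carried GLAST and differ in the sort by GFP, and their comparison reuses both groups. Of 27 genes tested among 12831, none was called, by edgeR at an adjusted p under 0.05. Of all genes tested, 0% were called higher and 0.0468% lower in stem cells, the latter being 6 genes. None of the 27 was called when any 1 library was left out. At an unadjusted p under 0.05 there were 3 genes, Hmgcs1, Sqle and Msmo1, against 1226 of the 12831 genes tested. DESeq2 called 1, Hmgcs1, against 635 of all genes. In Hmgcs1, Sqle and Dhcr7 every stem cell library lay above every astrocyte library, 3 genes against 6.28% of all tested. In 1 gene, Srebf1, every one lay below, against 3.69%, by the narrow gap between 329.5 CPM in stem cell 4 and 329.7 CPM in astrocyte b, and under plain totals the Srebf1 libraries overlapped.

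The log2 fold change (stem cells over astrocytes) was above 0 in 17 of the 18 synthesis genes, with a median of 0.72 against -0.14 over all genes tested, and 17 had the higher mean in stem cells under both scalings. For Hmgcs1 it was 1.43 ± 0.37 (adjusted p = 0.14, and 0.032 by DESeq2), for Sqle 1.94 ± 0.69 (adjusted p = 0.33), for Msmo1 0.66 ± 0.28 (adjusted p = 0.47) and for Dhcr7 1.43 ± 0.67 (adjusted p = 0.54). Srebf1, in contrast to the enzymes, had a log2 fold change of -0.41 ± 0.29 (adjusted p = 0.74). Standard errors this wide do not show that the 2 cell types were alike. Of the 5 regulators only Insig1 had a value above 0, at 0.97 ± 0.88.

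Beside the 29 genes, 43 other genes of sterol metabolism were read from the same fits. Between progenitors and stem cells, 2 of 39 tested were called higher in stem cells (3.66% of all genes) and 0 lower (4.95%). Every stem cell library lay above every progenitor library in 4 of them (7.5% of all genes) and below in 1 (11.8%). Between astrocytes and progenitors, 3 of 39 were called lower in progenitors (2.45% of all genes) and 0 higher (6.18%), with every progenitor library below every astrocyte library in 6 (5.84%) and above in 1 (15.2%). Between astrocytes and stem cells edgeR called 0 of 38, with 6 at an unadjusted p under 0.05 (1226 of all 12831 genes tested). DESeq2 called 1 (635 of all genes). Every stem cell library lay above every astrocyte library in 3 (6.28% of all genes) and below in 2 (3.69%). Cyp7b1, an oxysterol hydroxylase, was called in the first pair of comparisons. It had 296, 108, 300 and 173 CPM in stem cells, 92.4, 66.4, 102 and 56.4 CPM in progenitors and 490, 434, 187 and 154 CPM in astrocytes, so that progenitors lay below both. Its log2 fold change was 1.501 ± 0.351 for stem cells over progenitors (adjusted p = 0.026) and -1.98 ± 0.47 for progenitors over astrocytes (adjusted p = 0.024). Gramd1b, a carrier that moves sterol from the plasma membrane to the endoplasmic reticulum, was lower in progenitors (57.2 CPM on average) than in astrocytes (214 CPM), with -1.90 ± 0.50 (adjusted p = 0.043). Both genes lost their calls against astrocytes without any 1 progenitor library, without astrocyte b (Gramd1b also without c), without a count filter and with 10 counts asked of every library. Cyp7b1 lost its call for stem cells over progenitors without progenitor a, b or d, without stem cell 1 or 3 and in the fit of 12 libraries (adjusted p = 0.14).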

How the data were processed

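The authors deposited raw counts per gene, which were used as whole-number counts without normalization. Per the paper's methods, reads were trimmed with AdapterRemoval, those matching rRNA, mtDNA or PhiX were discarded, and the rest were aligned to GRCm38p4 with HISAT2 2.0.6 (version also in the submitters' processing notes) and counted by featureCounts on GENCODE M14, without strand. Symbols (50376 of 50600 identifiers), coordinates and exon lengths came from GENCODE M21, promoters from RefSeq on GRCm38.p6. The columns of astrocytes and progenitors carry no replicate number and are lettered a to d. Pairs of cell types were compared in edgeR 4.0.16 (R 4.3.3, TMM, quasi-likelihood without robust estimation) on genes reaching 10 counts in 4 or more of the 8 libraries, with p-values adjusted by Benjamini-Hochberg across all tested genes (threshold 0.05). The standard error is the log2 fold change over the square root of F. DESeq2 1.42.0, which the study used after its CLEAR filter, and other settings served as alternatives, and the scripts were tested on simulated data. The genes, lists and naming rule were chosen with earlier results of these data known. Per-library values are given for genes called in at least 1 comparison and for Srebf1, Srebf2, Insig1 and Scap, and of the other sterol genes at most the 4 called with the lowest adjusted p are named. Values of 1 gene that this rule would name are not reported here. Values given in full for Mvk, Ebp, Abca1 and, in part, Tm7sf2 and Hsd17b7 were chosen after they were seen.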

Additional observations from a re-analysis of the deposited data

Results flagged for a closer look

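In 10 of 85 groups of 4 libraries, 1 library stood apart from the other 3 by Dixon's test at its 95% critical value. That value is passed in about 1 of 20 independent groups of normally distributed values. These groups share libraries, and where the other 3 libraries are at 0, any library above 0 must pass. The count of 10 is therefore not read against that rate. In progenitor a, Sqle had 236.4 CPM against 107 to 118 CPM in the other progenitors, Sc5d had 159.2 CPM against 69.5 to 79.4 CPM, and Lpl had 4.046 CPM against 0. In progenitor c, Acat2 had 116.8 CPM against 163 to 172 CPM. Among stem cells, Fdft1 had 442.8 CPM in library 4 against 681 to 703 CPM, Msmo1 had 1386 CPM in library 3 against 825 to 896 CPM, and Abcg1 had 8.991 CPM in library 2 against at most 0.125 CPM. Among astrocytes, Insig2 had 179.1 CPM in library a against 30.2 to 49.8 CPM, Abcg1 had 62.62 CPM in library a against 0, and Ebp had 21.74 CPM in library b against at most 2.25 CPM.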

How the results depend on the processing

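No paired analysis was possible because the astrocyte and progenitor columns carry no replicate number. Of 807 log2 fold changes computed under alternatives for 58 gene comparisons, 713 kept their direction and their side of the threshold, 70 fell below it, 8 passed it and 16 changed sign. No sign changed in a comparison in which that gene was called. The cause of these changes was not tested. Between progenitors and stem cells, the 12-library fit called 2 of the 29 genes, 1 other sterol gene and 381 of all genes. DESeq2 called 13 of the 29 genes (10 in edgeR), 4 other sterol genes and 2394 of all genes (1327 in edgeR). Leaving out a library gave 3 to 9 of the 29 genes, 1 to 3 other sterol genes and 830 to 1383 of all genes. Between astrocytes and progenitors, the 29 genes gave 1 call without a count filter and 1 where every library had to hold 10 counts (the stricter filter), and 1 to 3 without a library. The other sterol genes gave 6 calls in DESeq2, 1 without a filter, 1 with the stricter filter and 1 to 5 without a library. All genes gave 2431 calls in DESeq2, 529 without a filter, 287 with the stricter filter and 719 to 1871 without a library, against 1278. Between astrocytes and stem cells, DESeq2 called 1 of the 29 genes, 1 other sterol gene and 635 of all genes, the 12-library fit 1 other sterol gene and 346 of all genes, no filter 16 and the stricter filter 12 of all genes, and fits without a library 0 to 8, against 6. Signs changed for progenitors over astrocytes in Insig1 (0.0667 with the stricter filter, -0.69 to 0.30 without a library), Hmgcs1 (-0.00098 to 0.43), Fdft1 (-0.18 to 0.92) and Scap (-1.21 to 0.52), for stem cells over progenitors in Insig2 (-0.0331 with the stricter filter, -0.0181 with thinned counts, -0.16 to 0.22 without a library), Lss (-0.0076 to 0.69), Abca1 (-0.25 to 0.33) and Stard4 (-0.0697 to 0.95), and for stem cells over astrocytes in Srebf2 (-0.36 to 0.18) and Scap (-1.02 to 0.69). Under plain totals the synthesis genes summed to 2111 CPM in astrocytes, and 11 of 87 CPM means moved by more than 1 SD.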
